A study of Mus musculus with 24 samples.

Results

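The comparison set uninjured hearts of mice labelled MuRF1 Tg+ against uninjured hearts of wild-type mice, over all genes measured on the array. Of the 24 arrays in the series, 12 came from sham-operated animals, 6 labelled MuRF1 Tg+ and 6 labelled wild type (MuRF1+/+), and all 12 were used. Each genotype had 3 hearts, and each heart gave 2 pieces, 1 above and 1 below the place where the left anterior descending coronary artery would have been tied. The animals were 12 to 16 weeks old and are described as matched for strain. The strain, sex and number of mouse lines, and the promoter that drives the transgene, are not given in the labels. Heart RNA carried Cy5 and was hybridised against Cy3-labelled RNA pooled from whole C57BL/6 pups at postnatal day 1. Every level below is a log2 ratio of heart over that pool, every difference is Tg+ minus wild type, and ± gives the standard error from the fit. The remaining 12 arrays, 6 Tg+ and 6 wild type after ischemia-reperfusion (I/R), were used only to see whether the same genes differed after injury.

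MuRF1, the product of Trim63, is a striated-muscle ubiquitin ligase that binds titin at the sarcomere and marks contractile and metabolic enzymes for the proteasome. It is known for its part in muscle wasting and in limiting cardiac growth, and Trim55 and Trim54 encode its close relatives MuRF2 and MuRF3. Fbxo32 encodes atrogin-1, another muscle ubiquitin ligase.

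Signal was similar in both genotypes. The share of spots with a Cy5 signal well above background was 34.6% to 40.7% in Tg+ and 34.9% to 43.3% in wild type, and log ratios of any pair of sham arrays correlated at 0.950 to 0.991. Ventricular cardiomyocyte markers had mean log2 ratios of 3.90 to 4.05 on Tg+ arrays and 3.47 to 4.03 on wild-type arrays, so the tissue carried its defining transcripts. Atrial cardiomyocyte markers were high on 2 arrays, at 1.58 on Tg+ above replicate 2 and 0.83 on wild-type above replicate 3, and lay between -0.32 and -0.10 on the other 10. Precision is limited by the number of hearts, 3 per genotype, since the 2 pieces of a heart are not independent animals.

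The 2 pieces of a heart did not match in their Y-linked transcripts for 2 wild-type replicate numbers. Ddx3y, a Y-linked RNA helicase, was at -0.55, 1.18 and -0.58 above the site and at -0.43, 1.03 and -0.39 below it in Tg+ replicates 1 to 3, the same pattern in both pieces. In wild-type replicates 1 to 3 it was at 1.24, 1.21 and -0.51 above the site but at 1.35, -0.69 and 1.20 below it. Eif2s3y, a Y-linked translation factor gene, had the same order, so the lower pieces numbered 2 and 3 do not match the upper pieces of those numbers. Across features, the deviations of wild-type above replicate 3 correlated at 0.69 with below replicate 2 and at -0.13 with below replicate 3. The labels were kept, and calls lost with these 2 pieces exchanged are named below. These transcripts were high on 2 of the 6 Tg+ arrays and on 4 of the 6 wild-type arrays, so Y-linked level and genotype were partly linked. The X-linked transcript Xist was well above background on exactly the other sham arrays. Hearts of both sexes were thus present, in unequal shares in the 2 genotypes. Among the features reported below, Apln and Fhl1 lie on the X chromosome. With the Y-linked level as a covariate, added after the values were seen, all 27 features reported below kept their call.

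**Figure D1:**
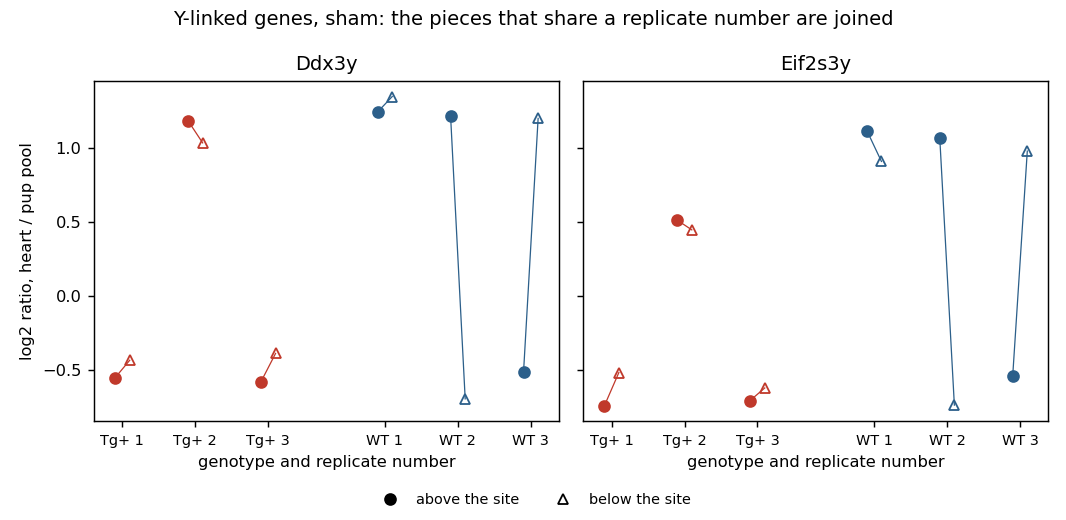
Log2 ratio (vertical axis) of Ddx3y and Eif2s3y on the 12 sham arrays, Tg+ on the left and wild type (WT) on the right, by replicate number. Filled circles are pieces above and open triangles pieces below the site; lines join pieces that share a number. The pairs agree in all 3 Tg+ hearts and in wild-type replicate 1, and cross over in wild-type replicates 2 and 3.

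Trim63 was at nearly the same level in both genotypes. Its bright probe gave a lowest, median and highest log2 ratio of 2.22, 2.31 and 2.47 on Tg+ arrays and 2.24, 2.27 and 2.55 on wild-type arrays. The difference was -0.02 ± 0.07 (limma adjusted p = 0.941), and a dimmer probe gave -0.06. No source used here says whether the transgene carries either probe sequence, and the genotype labels are therefore unchecked by Trim63. Trim55 differed by 0.05 ± 0.09, Trim54 by 0.03 ± 0.13 and Fbxo32 by -0.08 ± 0.11, with adjusted p-values of 0.863, 0.960 and 0.800. None of the 12 tested ubiquitin ligases of the MuRF and atrogin list passed the threshold, and their median difference was 0.01, beside -0.01 over all features.

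The smallest p-values belonged to a pair of small proline-rich genes, Sprr2b and Sprr2k. Sprr2 proteins are cross-linked into the cornified envelope of the epidermis and are also induced in other injured or stressed epithelia. Both genes lie in a cluster of near-identical paralogs on chromosome 3, and their array probes share a stretch of 28 bases, so a transcript of one can contribute to the signal of the other. The 2 probes were compared only with each other, so signal from other paralogs was not tested. Their sequences are shown because they bear on which paralogs the result can be assigned to, with the shared stretch in capitals.
Sprr2b: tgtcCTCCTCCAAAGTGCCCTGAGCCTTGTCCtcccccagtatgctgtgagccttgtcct
Sprr2k: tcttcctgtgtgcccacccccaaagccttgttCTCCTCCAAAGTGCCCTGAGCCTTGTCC
Aligned on the shared stretch the 2 probes overlap over 32 bases, of which 31 are identical.

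Sprr2b had a lowest, median and highest log2 ratio of 1.13, 1.34 and 1.48 on Tg+ arrays, against -0.35, -0.20 and -0.18 on wild-type arrays. All 6 Tg+ arrays lay more than a full log2 unit above every wild-type array, a gap far wider than the spread within either genotype. The difference was 1.56 ± 0.07, a 2.96-fold higher level in Tg+ hearts (limma adjusted p = 5.84e-09). Sprr2k lay at 0.85, 0.94 and 1.14 on Tg+ arrays and at -0.08, 0.03 and 0.09 on wild-type arrays, again without overlap. It was 1.92-fold higher in Tg+ hearts (log2 0.94 ± 0.06, adjusted p = 5.71e-07). The Sprr2b difference was 1.65 above the site and 1.47 below it. On the 3 slides that held sham arrays of both genotypes it was 1.48 to 1.69, and that of Sprr2k 0.84 to 1.03, although on each of these slides the genotypes came from different pieces.

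Other measured genes of the cluster did not pass. Sprr2e differed by 0.24 ± 0.05 (adjusted p = 0.0588), without overlap between genotypes but with a narrow gap, and was well above background on 6 Tg+ and 4 wild-type arrays. Sprr2j-ps differed by 0.04 and the 2 probes of Sprr2a1 by -0.04 and -0.11. The probes of Sprr2d, Sprr2f, Sprr2g and Sprr2h stayed below background on most arrays of both genotypes and were not tested. Of the 8 tested members of the list of cornified envelope and Sprr genes, 2 rose and none fell, beside 0.0969% and 0.141% of all features. Keratinocyte markers were not higher in Tg+ hearts. Of 11 listed, 8 were tested and none passed, their median difference was -0.10, and their mean log2 ratio was -2.23 to -1.89 on Tg+ and -2.12 to -1.85 on wild-type arrays.

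The promoters of the 2 genes are shown because their probes moved together, although a transcript of either gene can contribute to both signals. They are given as the 250 bases before each transcription start in RefSeq (build GRCm38.p6, plus strand, Sprr2b at chr3:92316455-92316704 and Sprr2k at chr3:92432332-92432581). Capitals mark 3 motifs searched on both strands, the AP-1 type element TGAGTCA, the octamer ATTTGCAT and the TATA box letters TATAAA.
Sprr2b promoter: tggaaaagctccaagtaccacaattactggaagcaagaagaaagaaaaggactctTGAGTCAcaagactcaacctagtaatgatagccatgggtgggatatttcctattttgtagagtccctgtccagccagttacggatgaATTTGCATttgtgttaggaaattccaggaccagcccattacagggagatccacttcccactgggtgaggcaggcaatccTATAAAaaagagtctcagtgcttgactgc
Sprr2k promoter: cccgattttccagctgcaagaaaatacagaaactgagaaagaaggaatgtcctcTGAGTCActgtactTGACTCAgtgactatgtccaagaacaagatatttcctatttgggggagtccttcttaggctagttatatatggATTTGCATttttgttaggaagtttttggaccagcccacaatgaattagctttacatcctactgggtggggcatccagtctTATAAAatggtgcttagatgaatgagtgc
The AP-1 type element lay 195 bases before the start of Sprr2b and 196 before that of Sprr2k, which had another on the opposite strand at 182, and the octamer lay at 108 and 109. Of 32851 promoter windows of the same length, 4.46% held the AP-1 type element, 1.6% the octamer and 12.4% the TATA letters. All 3 were found in 11 windows, 7 of them among the 10 Sprr2 genes of the table, including Sprr2d, Sprr2e, Sprr2f and Sprr2h, so the same letters also stand before relatives that did not pass or were not tested. Of 17 tested immediate early and AP-1 genes none passed, with a median of -0.06. Any part of these motifs in the Sprr2b and Sprr2k values was not tested.

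After I/R the pair lost most of its difference. Sprr2b lay at -0.11, -0.02 and 0.15 (lowest, median and highest) on the 6 Tg+ I/R arrays and at -0.39, -0.22 and -0.05 on the 6 wild-type I/R arrays, so the groups overlapped. The difference after I/R was 0.22 ± 0.07 (limma adjusted p = 0.257), and that of Sprr2k 0.04 ± 0.07 (adjusted p = 0.914). In a fit of all 24 arrays, added after the values were seen, the genotype difference after I/R minus that in sham hearts was -1.34 ± 0.10 for Sprr2b (adjusted p = 4.43e-08) and -0.90 for Sprr2k (adjusted p = 2.23e-06). Both probes were well above background on 4 of 6 I/R arrays of each genotype, and 5 I/R arrays, 2 of them Tg+, had under 25% of Cy5 spots above background. Y-linked transcripts also differed between the genotypes after I/R, as described below. The parts of weak signal and of Y-linked level in this loss were not tested.

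**Figure D2:**
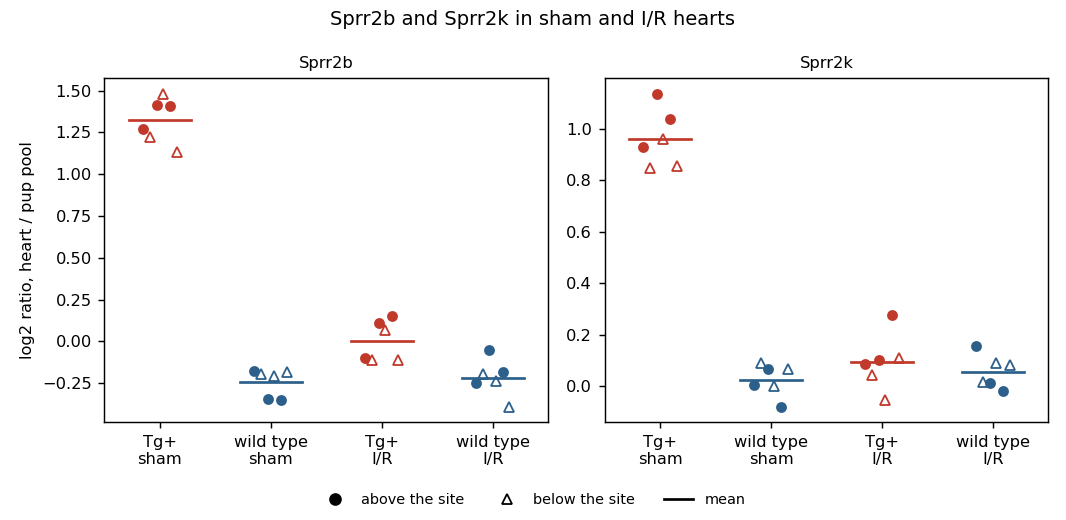
Log2 ratio (vertical axis) of Sprr2b and Sprr2k in Tg+ and wild-type sham hearts and in Tg+ and wild-type I/R hearts, 6 arrays each. Filled circles are pieces above and open triangles pieces below the site, and bars are means. Tg+ sham arrays stand apart from the other 3 groups, which lie near each other.

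In all, 27 of 11352 features (0.238%) passed an adjusted p of 0.05 in sham hearts, 11 higher in Tg+ (0.0969%) and 16 lower (0.141%). At an unadjusted p under 0.05 there were 1408 (12.4%), 586 higher (5.16%) and 822 lower (7.24%). The 6 Tg+ arrays lay wholly above or wholly below the 6 wild-type arrays for 218 features (1.92%; 0.758% above and 1.16% below) and for 26 of the 27. The count rested on single arrays. It was 4 without wild-type above replicate 2, 9 without wild-type below replicate 3 and 63 without wild-type above replicate 1. It was 9 without Tg+ below replicate 3, 12 without Tg+ above replicate 1, and 14 without Tg+ below replicate 1 or Tg+ above replicate 3. With the mean of the 2 pieces of a heart as 1 value, 3 hearts against 3, only 4 features passed, namely Sprr2b, Sprr2k, ENSMUST00000035300 and Cpxm2. The same 4 passed with the 2 wild-type lower pieces exchanged and, of the 27, were those that passed with slide as a fixed block. With the pieces exchanged in the heart block, 12 of the 27 passed. The 15 that lost the call there, with adjusted p-values of 0.0520 to 0.0848, were Phf10, NAP103733-1, Tex264, Xrcc1, Siva1, Tspan17, Ndufa12, Usp20, Grk2, Lama5, Osgep, Strn, Masp1, Hint3 and Tmem256. The split of 11 higher and 16 lower was 30 and 11 with the Cy5 channel alone, and 37 and 24 with quantile normalization between arrays.

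**Figure D3:**
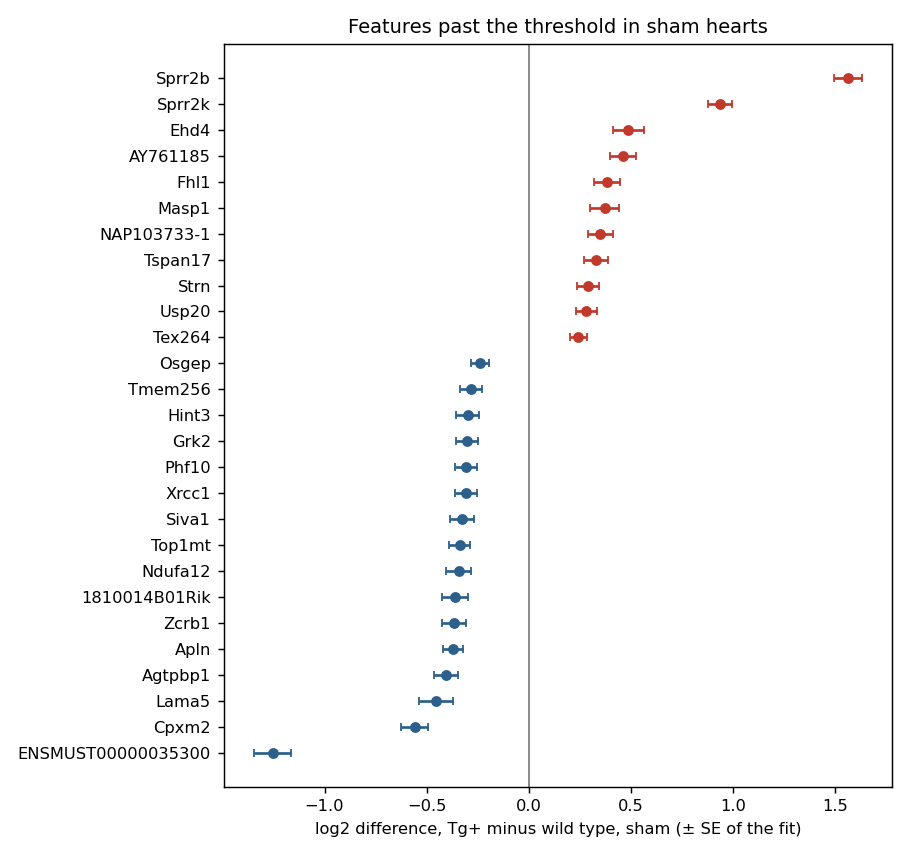
Log2 difference, Tg+ minus wild type (horizontal axis), of the 27 features past the threshold in sham hearts, with bars of 1 standard error of the fit. Sprr2b (1.56), Sprr2k (0.94) and ENSMUST00000035300 (-1.25) lie apart, and the other 24 lie between -0.56 and 0.49.

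Among the other 9 features that rose, Ehd4 and Fhl1 are muscle and membrane-traffic genes. Ehd4, an ATPase of the endosomal recycling system, lay at 1.77, 2.05 and 2.22 on Tg+ arrays and at 1.44, 1.51 and 1.58 on wild-type arrays. It was 1.40-fold higher in Tg+ hearts (log2 0.49 ± 0.08, adjusted p = 0.0149). Fhl1, a LIM-domain protein that binds titin in the sarcomeric I-band, lay at -2.69, -2.66 and -2.36 on Tg+ arrays and at -3.06, -3.00 and -2.90 on wild-type arrays (difference 0.38 ± 0.06, adjusted p = 0.0257). Its highest value was on Tg+ above replicate 2, the array with the highest atrial markers, and without that array the difference was 0.33 (adjusted p = 0.0118). Groups did not overlap for either gene, and both calls were lost on heart means (adjusted p = 0.154 and 0.0865).

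The other 7 features that rose had varied known roles. Usp20, a deubiquitinase, rose by 0.28 ± 0.05, and Tex264, a receptor that delivers endoplasmic reticulum to autophagosomes, rose by 0.24 ± 0.04, although another bright Tex264 probe differed by 0.02. Strn, a scaffold of a phosphatase complex, rose by 0.29 ± 0.05, Tspan17, a tetraspanin, by 0.33 ± 0.06, and Masp1, a protease of the lectin pathway of complement, by 0.37 ± 0.07. Another kept probe differed by 0.11 for Strn and by 0.18 for Masp1. A further pair, AY761185 and the array feature NAP103733-1, was well above background on all 6 Tg+ arrays and on no wild-type array. Both were kept for testing only through the Tg+ groups, so their signal there was a condition of entry and not a separate result. Against the lowest signal counted as well above background, their Cy5 levels were at least 1.32-fold and at least 1.23-fold higher in Tg+ hearts. The limma adjusted p-values of their log ratios, 0.00834 and 0.0270, do not test these bounds and rest on that same entry. Adjusted p-values of the 5 named genes ran from 0.0270 to 0.0408, and all 5 missed the threshold on heart means. AY761185 and NAP103733-1 missed it there too (limma adjusted p = 0.0981 and 0.154).

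The largest fall was in a feature that the array names only as the transcript ENSMUST00000035300, on chromosome 7 per the array's annotation. Its probe is printed because no symbol identifies it.
ENSMUST00000035300: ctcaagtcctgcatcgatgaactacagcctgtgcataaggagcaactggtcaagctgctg
It lay at 0.68, 0.80 and 1.18 on Tg+ arrays and at 1.88, 2.13 and 2.30 on wild-type arrays, so the highest Tg+ array stayed well under the lowest wild-type array. The level in Tg+ hearts was 0.419 of that in wild type (log2 -1.25 ± 0.09, adjusted p = 2.50e-06), and within the 3 mixed slides the difference was -1.45 to -1.31. This feature, Sprr2b and Sprr2k kept the call and its direction in all 38 other settings tried.

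Cpxm2, a carboxypeptidase-like protein of the extracellular space, lay at 0.87, 1.01 and 1.21 on Tg+ arrays and at 1.46, 1.60 and 1.70 on wild-type arrays. It fell by 0.56 on the log2 scale (SE 0.07, adjusted p = 0.00141), and a second bright probe differed by -0.25. Its call held in all settings fitted on sham arrays (adjusted p up to 0.0465) and was lost only where all 24 arrays shared 1 spread. Apln, which encodes the peptide apelin, a vasodilator and inotrope acting through its receptor on heart and vessels, lay at -0.07, 0.01 and 0.09 on Tg+ arrays and at 0.31, 0.36 and 0.50 on wild-type arrays. Its level fell by 0.37 (SE 0.05, adjusted p = 0.00478), and a second bright probe differed by -0.34. The apelin call was lost on heart means (adjusted p = 0.0509, and 0.143 with the 2 wild-type lower pieces exchanged) and with slide as a fixed block (adjusted p = 0.149).

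Among genes for enzymes and regulators, Top1mt, the topoisomerase of mitochondrial DNA, lay at -0.42, -0.30 and -0.26 on Tg+ arrays and at -0.06, 0.03 and 0.09 on wild-type arrays (difference -0.34 ± 0.05, adjusted p = 0.0109). Agtpbp1, an enzyme that trims glutamate from tubulin, fell by 0.40 (SE 0.06, adjusted p = 0.00923), and its Tg+ arrays were tightly grouped, with an SD of 0.02 against 0.14 in wild type. Grk2, the kinase that desensitises beta-adrenergic receptors, fell by 0.30 (SE 0.05), with another bright probe at -0.10. Lama5, a laminin chain of basement membranes, fell by 0.45 (SE 0.08) and was the only one of the 27 whose groups overlapped. Ndufa12, a subunit of respiratory complex I, fell by 0.34 by its brightest probe, while its other 2 bright probes differed by 0.02 and 0.13, so the gene's direction is uncertain.

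The remaining falls lay between -0.37 and -0.24. They were in Zcrb1, a protein of the minor spliceosome, Phf10, a subunit of a chromatin remodelling complex, Xrcc1, a scaffold of DNA strand-break repair, Siva1, a regulator of apoptosis, Hint3, a histidine triad protein, Tmem256, 1810014B01Rik and Osgep, an enzyme of tRNA modification, the last of these named after its value was seen. A second bright probe differed by -0.27 for Tmem256, -0.08 for 1810014B01Rik and -0.07 for Osgep. Over all 27 features, 10 had at least 1 other probe above background, and of these 11 other probes 9 had the same sign. Only 2 of the 11, those of Apln and Tmem256, came near the probe used in size, and the others differed by clearly less or in the opposite direction. Of the 27, 23 lost the call without at least 1 of the 12 arrays, and the 4 that held on heart means lost it in none of these fits.

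**Figure D4:**
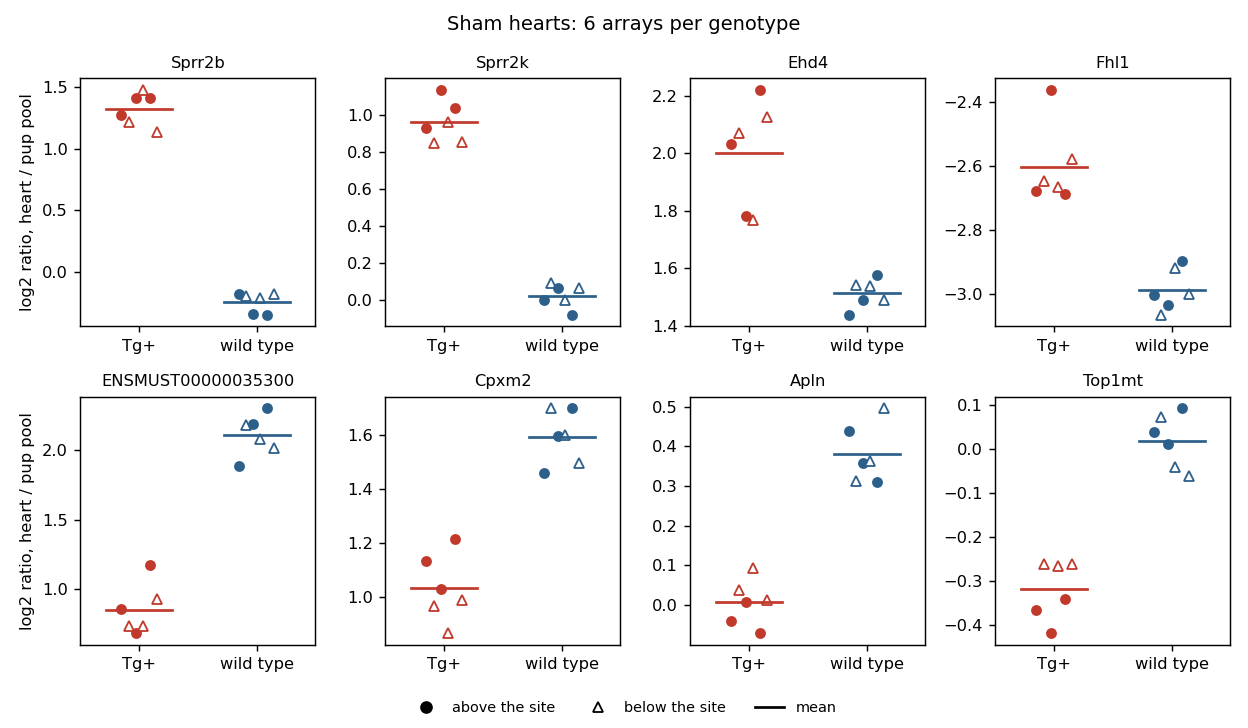
Log2 ratio (vertical axes, scaled per gene) of 8 genes on the 12 sham arrays, Tg+ left and wild type right in each panel. Filled circles are pieces above and open triangles pieces below the site, and bars are means; in all 8 panels the genotypes do not overlap.

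The genotype difference was set against piece to see whether tissue below the site differed from tissue above it. No feature passed (0 of 11351, limma), while 668 did at an unadjusted p under 0.05 (5.88%). The smallest unadjusted p-values belonged to Tubb2b, a beta-tubulin (interaction 0.66 ± 0.12), Prss12, a serine protease (0.53 ± 0.10), and Lgals6, a galectin (0.50 ± 0.10), each with adjusted p = 0.609. With slide as a fixed block 6 features passed. All 27 features called over both pieces kept their sign on the 3 mixed slides, whose sham arrays are among those that made the calls. For the 26 whose groups did not overlap, that sign was fixed in advance, so it is no separate check.

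Genes of the sarcomere were described by lists. Of 21 tested genes of the Z-disc and titin-binding list, 1 rose (Fhl1), none fell, and 9 were higher at an unadjusted p under 0.05 and 18 had a positive difference, beside 5.16% higher and 44.0% positive over all features. The median difference was 0.18, beside -0.01 over all features, and it kept its sign in all 38 other settings (0.12 to 0.25). The mean log2 ratio of the list was 1.09 to 1.21 on Tg+ arrays and 0.87 to 1.07 on wild-type arrays, without overlap but with a narrow gap. List means were compared for the other lists too, and only those of the cornified envelope and Sprr list also had no overlap. That list holds Sprr2b and Sprr2k, called on these same arrays, so its means are no separate result. Of its 8 tested members 4 had a negative difference, and its median was 0.004. Pdlim5, a PDZ-LIM adaptor, differed by 0.59 ± 0.12 (adjusted p = 0.0539), Myot, myotilin, by 0.58 ± 0.13, and Tcap, which caps titin, by 0.47 ± 0.12, all 3 named after their values were seen. Ankrd1, a titin-binding ankyrin-repeat protein, differed by 0.50 ± 0.13 (adjusted p = 0.127).

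The filaments themselves had no member past the threshold. Of 15 thin-filament genes none passed and the median was 0.11 (0.03 to 0.16 over the other settings). Cardiac actin Actc1 differed by 0.36 ± 0.09 (adjusted p = 0.0952) and the pointed-end cap Tmod1 by 0.28 ± 0.06 (adjusted p = 0.0680). Neither had overlap between genotypes, but the gaps were narrow. Of 13 thick-filament genes none passed and the median was 0.13 (0.02 to 0.23 over the other settings). Myosin-binding protein C, Mybpc3, differed by 0.52 ± 0.17 and the ventricular light chain Myl3 by -0.38 ± 0.17, with adjusted p-values of 0.220 and 0.378. Of 19 published partners and substrates of MuRF1 none passed, and the median was 0.04.

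No gene of the lists for protein quality control passed. Over all features 5.16% were higher and 7.24% lower at an unadjusted p under 0.05. Of 38 proteasome subunits 9 were higher and none lower, and the median was 0.08 (0.05 to 0.14 over the other settings). List means overlapped, at 0.27 to 0.45 on Tg+ arrays and 0.26 to 0.38 on wild-type arrays. Psmc4 and Psmc1, ATPases of the regulatory particle, differed by 0.14 ± 0.04 and 0.20 ± 0.06. None of 22 chaperones passed, with 7 higher and none lower unadjusted and a median of 0.06 (0.03 to 0.13 over the other settings). The small heat shock protein Hspb6 differed by 0.38 ± 0.10 and the co-chaperone Bag3 by 0.18 ± 0.05, with adjusted p-values of 0.121 and 0.142. The list of 17 tested autophagy and lysosome genes does not hold Tex264, which rose. Of the 17 none passed, the median was 0.05, which was 0.00 with the Y-linked covariate, and the cargo receptor Sqstm1 differed by 0.41 ± 0.08 (adjusted p = 0.0565). Of 25 antioxidant genes none passed, 8 were higher and 2 lower unadjusted, and the median was 0.06 (0.03 to 0.15 over the other settings). Catalase, Cat, differed by 0.31 ± 0.06 (adjusted p = 0.0513), without overlap (0.758% of all features lay wholly above). The glutathione transferase Gstm2 differed by 0.35 ± 0.08. Its groups nearly met, with a lowest Tg+ value of 1.585 and a highest wild-type value of 1.583. The metallothioneins Mt2 and Mt1 differed by -0.39 ± 0.10 and -0.30 ± 0.08.

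Genes of the respiratory chain and of the ribosome were described in the same way. The list of 65 tested respiratory chain and ATP synthase genes does not hold Ndufa12, which was called lower by its brightest probe. Of the 65 none passed, 22 were lower and none higher unadjusted, and 57 had a negative difference, beside 7.24% lower, 5.16% higher and 56.0% negative over all features. The median was -0.12. The cytochrome oxidase subunits Cox4i1 and Cox8b differed by -0.25 ± 0.05 and -0.41 ± 0.10 (adjusted p = 0.0626 and 0.0936). The median stayed negative in all 38 other settings but was -0.05 with slide as a fixed block, -0.06 with the Y-linked covariate and -0.04 with the Cy5 channel alone. List means overlapped, at 1.64 to 1.80 on Tg+ arrays and 1.68 to 1.99 on wild-type arrays. Of 40 cytosolic ribosomal proteins none passed, 16 were lower and none higher unadjusted, beside 7.24% lower and 5.16% higher over all features, and the median was -0.12. It was -0.02 with the Cy5 channel alone. The 26 tested pyruvate dehydrogenase and citric acid cycle genes had a median of 0.05, with 3 higher and 1 lower unadjusted. Fatty acid oxidation genes under PPAR-alpha (29 tested, median -0.03) and the creatine and adenylate kinase genes (10 tested, median -0.03) stayed near the median of all features, and none passed.

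**Figure D5:**
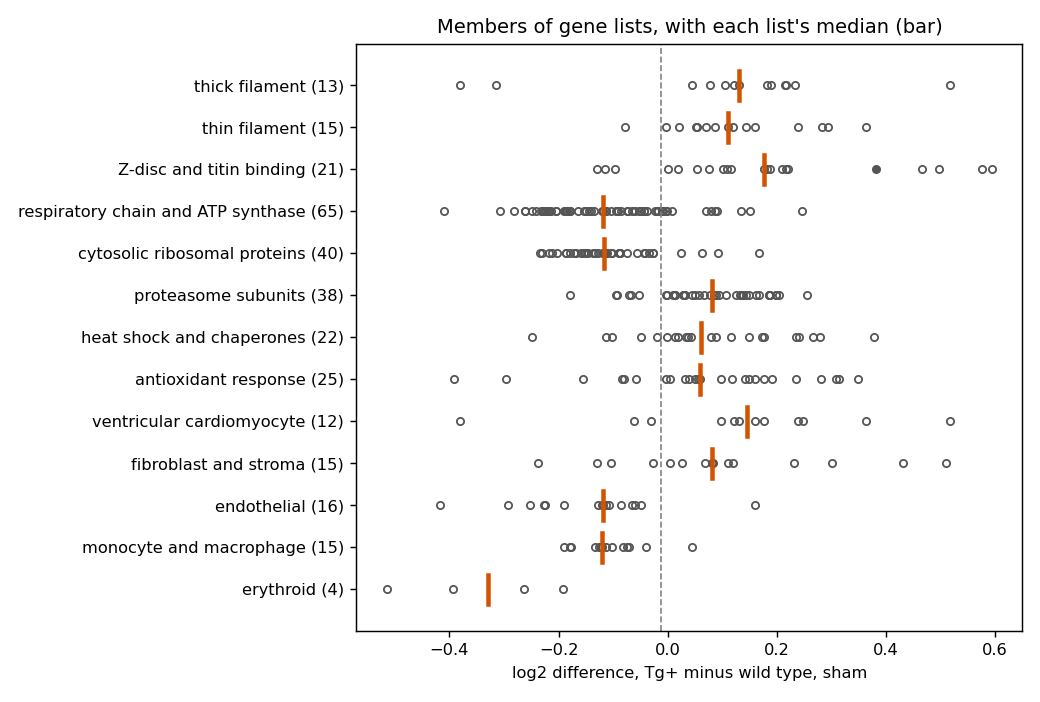
Log2 difference, Tg+ minus wild type (horizontal axis), of each tested member of 13 gene lists in sham hearts; the number tested stands after each name. Orange bars are list medians, the dashed line is the median of all features (-0.01), and the filled point is the member past the threshold (Fhl1). Sarcomere lists lie to the right of the line, respiratory chain, ribosomal, endothelial, macrophage and erythroid lists to its left.

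No marker of other cells in the pieces passed. In such whole-tissue samples, fewer cells of a type and less RNA per cell cannot be told apart. All 4 tested of 6 listed erythroid markers were lower in Tg+ hearts at an unadjusted p under 0.05 (7.24% over all features), none passed, and the median was -0.33. Hba-a1, an alpha-globin, differed by -0.39 ± 0.09 (adjusted p = 0.0818), and the mean log2 ratio of the list was -2.64 to -2.31 on Tg+ arrays and -2.31 to -1.82 on wild-type arrays. Of 16 endothelial markers none passed, 15 had a negative difference (56.0% over all features) and the median was -0.12, which was -0.02 with slide as a fixed block and -0.07 with the Y-linked covariate, with list means of 0.24 to 0.45 on Tg+ arrays and 0.23 to 0.73 on wild-type arrays. The fatty acid carrier Fabp4 differed by -0.42 ± 0.10 (adjusted p = 0.0954). Of 20 listed macrophage markers 15 were tested and none passed, 14 had a negative difference (56.0% over all features) and the median was -0.12, with list means of -0.41 to -0.13 on Tg+ arrays and -0.24 to -0.12 on wild-type arrays. The list held the complement gene C1qc at -0.18 ± 0.06. Fibroblast markers had 4 of 15 higher unadjusted (5.16% over all features), none past the threshold and a median of 0.08, which was -0.01 in 1 of the 38 other settings. The proteoglycan Lum differed by 0.51 ± 0.14 and the matrix protein Mgp by 0.43 ± 0.12. The part of these cell markers in the Apln, Lama5 and sarcomere values was not tested.

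After I/R no feature separated the genotypes (0 of 11352, limma, and 1283 at an unadjusted p under 0.05, 11.3%). Ddx3y and Eif2s3y were well above background on every wild-type I/R array. Among Tg+ I/R arrays they were so only in the pieces of replicate 3. Y-linked level and genotype were thus more closely linked after I/R than in sham hearts. The Y-linked level was a covariate in the sham fit alone, and its part in the I/R and surgery values was not tested. The spread was wider there, with a median SD within groups of 0.19 on I/R arrays against 0.10 on sham arrays, so smaller differences were not detectable. Of the 27 features, 23 had the same sign after I/R as in sham hearts and 4 the opposite sign. The share of all features that kept their sign was not counted, so these signs have no background to be set against. Cpxm2 differed by -0.47 ± 0.24, Agtpbp1 by -0.44 ± 0.22, ENSMUST00000035300 by -0.50 ± 0.19 and Tspan17 by 0.33 ± 0.09 after I/R, with adjusted p-values of 0.510, 0.510, 0.347 and 0.205. Apln differed by 0.21 ± 0.13 after I/R, and its genotype by surgery difference was 0.58 (adjusted p = 0.0645). Of 11352 features 34 (0.3%) passed that test of genotype by surgery, among them 2 of the 27, Sprr2b and Sprr2k.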

How the data were processed

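RNA from 12 sham heart pieces, with 12 I/R pieces for reference, was read on two-colour arrays. Per the file headers, Feature Extraction 9.5.3.1 gave the deposited intensity of each spot (mean signals and background medians, not normalized) and a log10 ratio of Cy5 over Cy3 after Agilent's own background and dye correction. The deposited series table holds log2 ratio values (correlation with the Agilent ratio at least 0.992); no source used here states its centring. Per the labels, 50 ng of RNA was labelled and heart RNA carried Cy5 without dye swap, although one protocol text names Cy3.

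Here limma 3.58.1 (R 4.3.3) corrected background by normexp (offset 50) and normalized ratios by loess within arrays. Control and outlier spots had weight 0. Of 41174 probes, 15331 were kept, those that at least 1 sham group (genotype and piece) showed well above background in Cy5 on its 3 arrays, and the brightest probe stood for each of 11352 features. RefSeq names matched 22951 probes by accession. Genotype was fitted with piece as covariate and heart as a random block (correlation 0.135; 9 residual degrees of freedom), with Benjamini-Hochberg adjustment over all features. Its p-values rest on 12 pieces of 6 hearts, and the wild-type block follows replicate numbers that Y-linked transcripts contradict for 2 of 3 hearts. The spread between hearts, 3 against 3, is tested by the fit on heart means. In their deviations from the group means, the same-number pieces of a heart correlated at 0.14 to 0.44 in Tg+ and at 0.43, -0.28 and -0.13 in wild type.

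The comparison, gene lists and tests were chosen with earlier results of these data known. Named genes are the MuRF genes and Fbxo32, up to 15 rises and 15 falls past the threshold, and per list up to 4 members past it or the 2 with the smallest p. Lists are described by counts and medians. Alternatives changed the block, slide, background, normalization, filter, probe choice, weights and arrays.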

Additional observations from a re-analysis of the deposited data

Results flagged for a closer look

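The genotype difference of 2 genes changed with surgery in a fit of all 24 arrays. For Sprr2b the difference after I/R minus that in sham hearts was -1.34 ± 0.10, with 0.22 after I/R and 1.56 in sham hearts. For Sprr2k it was -0.90, with 0.04 after I/R and 0.94 in sham hearts.

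In 5 of 62 sets of 6 arrays checked, 1 array lay apart from the other 5 by more than Dixon's critical share of the range; chance alone gives about 1 set in 20. Fhl1 was at -2.36 on Tg+ above replicate 2, against -2.69 to -2.58 on the other Tg+ arrays. Phf10 was at -0.98 on Tg+ below replicate 1, against -1.14 to -1.08. NAP103733-1 was at 0.19 on wild-type below replicate 1, against 0.00 to 0.03, all below background. Ndufa12 was at 1.51 on wild-type below replicate 2, against 1.65 to 1.74. Usp20 was at 1.05 on wild-type above replicate 3, against 0.81 to 0.90. The causes were not tested.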

How the results depend on the processing

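In sham hearts 27 features passed with the settings of the report. Without a replicate block, with the 12 arrays taken as independent, 105 passed, and with slide as the random block 120. With array weights 185 passed, and with the mean of the 2 pieces per heart 4. With Agilent's log ratio, or with the deposited series values, 12 passed, with the Cy5 channel alone 41, with quantile normalization between arrays 61 and with no filter on dim probes 82. With all 24 arrays in 1 fit 6 passed. Added after the data were seen, the replicate block with the wild-type lower pieces 2 and 3 exchanged gave 12, heart means so exchanged 4, both pieces left out 47, the Y-linked level as a covariate 188 and the replicate number as a fixed replicate block 76. All 27 kept the call with that covariate. The number pairs hearts only within a genotype. Deviations from the group means of same-numbered Tg+ and wild-type arrays correlated at -0.34 to 0.13. Leaving out each array gave 4 to 63, and each heart 4 to 42. With slide as a fixed block 26 passed, of which 4 were among the 27. No call reversed in any setting. Sizes moved as well. With Agilent's log ratio the difference was 2.40 for Sprr2b, 1.73 for Sprr2k, 1.85 for Masp1 and 2.84 for AY761185. In the settings of the report these were 1.56, 0.94, 0.37 and 0.46. For Ehd4 it was 0.49 in both.

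The interaction with piece gave 0 in every setting except slide as a fixed block (6). The I/R comparison gave 0 to 14 when 1 array was left out, 14 of them without wild-type I/R above replicate 3, 2 without the weak-signal arrays and 0 in the other settings. The causes were not tested. Signal near background and 3 hearts per genotype limit small differences.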
